A study of Homo sapiens with 6 samples.

Results

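Tubulin transcripts were read in immunoprecipitates of the double-stranded RNA-binding protein Staufen1 (Stau1) from cells arrested in prometaphase with nocodazole, a drug that binds tubulin and blocks its assembly into microtubules. The 10 transcripts were chosen by gene symbol, TUBA1A, TUBA1B and TUBA1C for alpha-tubulin, TUBB, TUBB2A, TUBB2B, TUBB2C, TUBB3 and TUBB6 for beta-tubulin and TUBG1 for gamma-tubulin. Each symbol matched 1 of the 37879 targets of the array, and all 10 were detected on all 6 arrays, as were 9884 targets in total. Detection means a detection p under 0.05 in the deposited table, and this p did not always follow the signal of a target. TUBB2C is an older symbol for the gene that RefSeq now lists as TUBB4B, and the other 9 symbols are current.

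The cells were HEK293T, an established human embryonic kidney line that takes up plasmids easily. The control immunoprecipitation (control IP) came from cells given the empty vector and the Stau1 IP from cells given a plasmid for Stau155-FLAG, which is the shorter form of Stau1 with a FLAG tag. Per the sample labels, both sets of cells spent 15 h in nocodazole (50 ng/ml), and both IPs used anti-FLAG antibody. The study's methods give a longer nocodazole treatment for these cells than the labels do, and which is right could not be settled here. Expression was transient, in 1 cell line, and there were 3 arrays of each IP. The labels do not say that the replicates came from separate cultures, so every p-value measures the spread between these arrays, which may be technical.

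Alpha- and beta-tubulin pair into the dimers that build microtubules, and gamma-tubulin nucleates them at the centrosome. Cells also control tubulin by its mRNA. When unassembled tubulin accumulates, as it does under drugs that depolymerize microtubules, TTC5 recognizes the first residues of tubulin chains as they leave the ribosome, SCAPER joins it and the CCR4-NOT deadenylase starts decay of the mRNA. Stau1 binds double-stranded regions of transcripts and acts on their transport, translation and decay. Every culture here received nocodazole, so an effect of the drug on tubulin mRNA cannot be read. The comparison asks which tubulin mRNAs came down more in the Stau1 IP than in the control IP. Total RNA was not analysed here, so a transcript that was more abundant in the cells and one that was bound more cannot be told apart.

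The 6 arrays did not divide cleanly by their labels. Over the detected targets, Stau1 IP arrays 1 and 3 had a Pearson correlation of 0.996, while each correlated with Stau1 IP array 2 at 0.940 and 0.943. Control IP array 2 correlated with Stau1 IP arrays 1 and 3 at 0.983 and 0.984, and with control IP arrays 1 and 3 at 0.977 and 0.982. Stau1 IP array 2 correlated with control IP arrays 1, 2 and 3 at 0.962, 0.954 and 0.977. The groups of these arrays numbered 2 may therefore be exchanged, which the labels cannot settle. Signals on both are given singly below, and the IP differences of the 10 tubulins are also given without them. Stau1 IP arrays 1 and 3 came closer to the error between beads than any other pair, though they still differed by more than it. Of the detected targets, 18.8% differed between this pair by over 1.96 times the bead standard error, against 42.6% to 62.0% in every other pair of arrays. The STAU1 target gave 2499, 3246 and 2758 in control IPs 1, 2 and 3, and 2845, 1857 and 3130 in Stau1 IPs 1, 2 and 3, so it did not separate the groups. By its detection p it did not count as detected on control IP array 1, despite that signal. All 6 of the HEK293T markers checked (KRT8, KRT18, VIM, CD24, NEFL and NEFM) and all 7 mitotic markers found were detected on every array, whereas of 6 markers of other cell types PTPRC, CD3E, HBB and ALB were detected on none, INS on 4 and COL1A1 on 5.

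Of the 10 chosen tubulin transcripts, TUBB2C was the only one whose Stau1 IP arrays all lay above its control IP arrays. Its bead signal read 2410, 3910 and 2776 in the 3 control IPs against 5595, 4709 and 6735 in the 3 Stau1 IPs. Within each group, the array numbered 2 was the one nearest to the other group. After background correction, variance stabilization and normalization, the level on the log2 scale averaged 11.67 ± 0.26 (SD, n = 3) across the control IPs, compared with 12.53 ± 0.25 (SD, n = 3) across the Stau1 IPs. The difference of 0.86 (standard error 0.18) is a 1.82-fold higher level in the Stau1 IPs, with a 95% confidence interval from 1.33-fold to 2.48-fold. It had an unadjusted p of 0.00390 from limma and did not pass after Benjamini-Hochberg adjustment over all targets (adjusted p = 0.258). TUBB2C, on chromosome 9, encodes a beta-tubulin found in most tissues, and it was among the 6.72% of all targets, and 9.69% of detected ones, for which the Stau1 group lay wholly above the control group. The reverse held for 0 tubulins, 7.64% of all targets and 13.3% of detected ones.

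**Figure D1:**
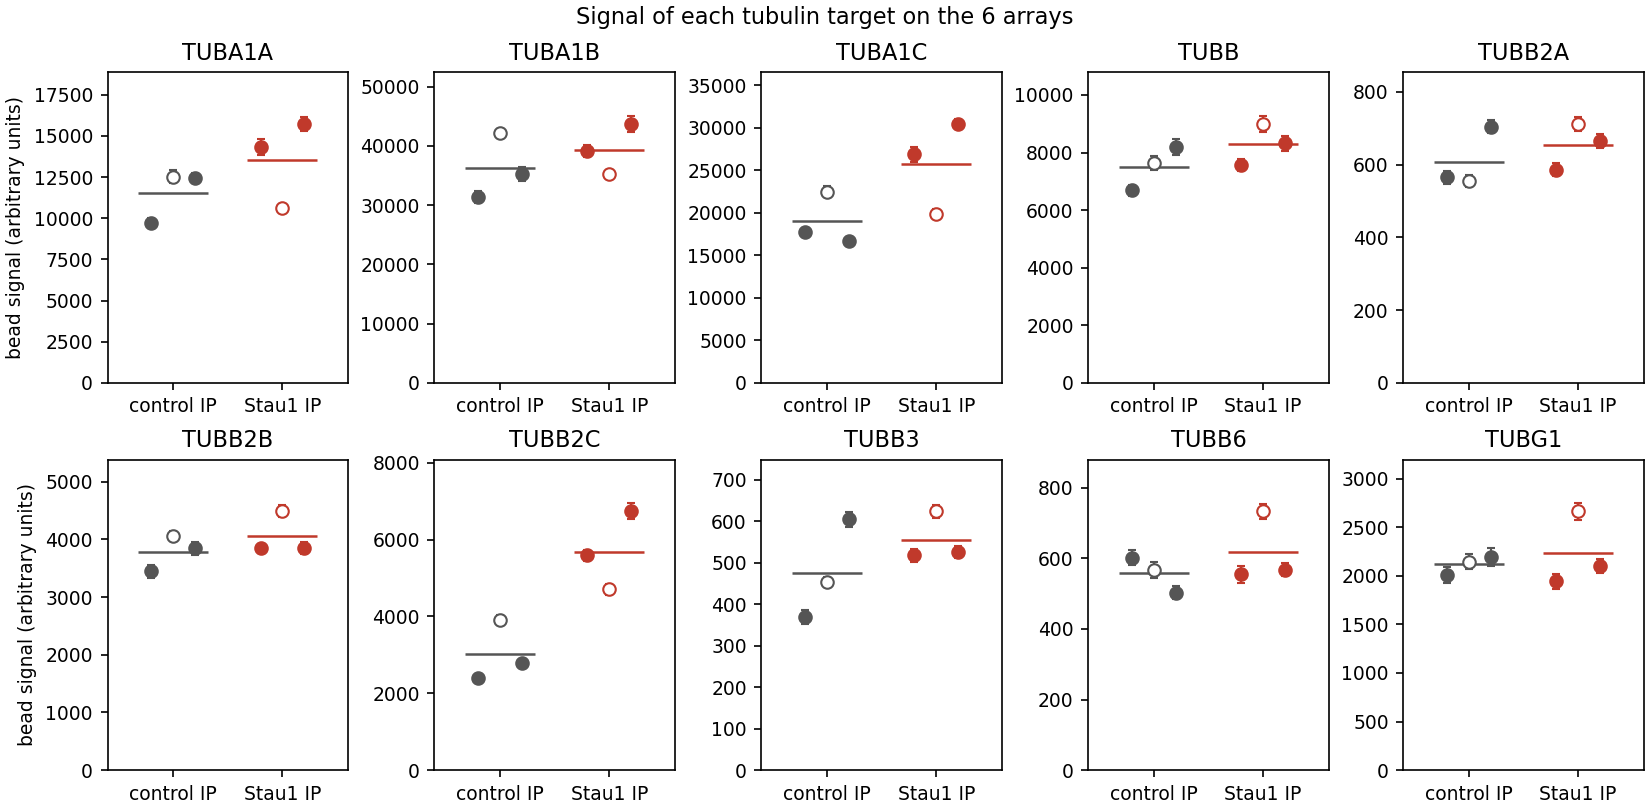
Bead signal of the 10 tubulin targets (vertical axis, arbitrary units from 0, no background subtraction) on the control IP (grey) and Stau1 IP (red) arrays, placed left to right as arrays 1, 2 and 3, with arrays numbered 2 as open circles. Error bars are the standard error between beads and lines are group means; the TUBB2C panel is the only one in which the red points all stand higher than the grey ones.

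The 3 alpha-tubulin transcripts shared a pattern in which, in normalized levels, Stau1 IP arrays 1 and 3 were the highest and Stau1 IP array 2 fell among the controls. TUBA1A, TUBA1B and TUBA1C encode nearly identical proteins from neighbouring genes on chromosome 12, and whether their probes also bind each other's transcripts was not tested. TUBA1C read 17804, 22509 and 16714 in the 3 control IPs against 26906, 19934 and 30462 in the 3 Stau1 IPs. Its groups overlapped through the arrays numbered 2, since Stau1 IP array 2 read less than control IP array 2. The mean normalized levels were 14.25 ± 0.18 (SD, n = 3, log2) across the control IPs, compared with 14.75 ± 0.45 (SD, n = 3, log2) across the Stau1 IPs. The difference was 0.50 (standard error 0.24, adjusted p = 0.661 from limma), or 1.41-fold, with an interval from 0.932-fold to 2.15-fold. This was the second largest IP difference among the tubulins, and its interval included no change.

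TUBA1A, the alpha-tubulin best known from developing neurons, read 9713, 12515 and 12455 in the 3 control IPs against 14324, 10595 and 15722 in the 3 Stau1 IPs. Stau1 IP arrays 1 and 3 stood above the controls and Stau1 IP array 2 read lower than 2 of them. The log2 difference was 0.24 (standard error 0.22, adjusted p = 0.859 from limma). TUBA1B, an alpha-tubulin expressed in most tissues, read 31420, 42236 and 35301 in the 3 control IPs against 39119, 35320 and 43705 in the 3 Stau1 IPs. Here the groups were interleaved, with control IP array 2 above Stau1 IP array 1 in raw signal. Its log2 difference was 0.22 (standard error 0.19, adjusted p = 0.852 from limma). With 25 targets at or above the mean normalized level of TUBA1B, few points guide the spline there. Under median centring, which uses no spline, the log2 difference of TUBA1B was 0.01 and that of TUBA1A was 0.11. TUBA1C, with 103 targets at or above its mean normalized level, had 0.32 under median centring against 0.50 with the spline.

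The other beta-tubulins and TUBG1 had smaller IP differences, from 0.0012 to 0.19 on the log2 scale, and none passed the test. TUBB, the most widely expressed beta-tubulin, read 6682, 7635 and 8193 in the 3 control IPs against 7571, 8990 and 8322 in the 3 Stau1 IPs. The 2 groups overlapped, and control IP array 1 alone stood below the rest. The mean normalized levels were 12.95 ± 0.16 (SD, n = 3, log2) across the control IPs, compared with 13.08 ± 0.04 (SD, n = 3, log2) across the Stau1 IPs, and the difference was 0.13 (standard error 0.09, adjusted p = 0.788 from limma). Its interval ran from 0.943-fold to 1.27-fold.

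TUBB2A and TUBB2B, neighbouring genes on chromosome 6 that encode closely related beta-tubulins abundant in neurons, also overlapped between the groups. TUBB2B read 3443, 4059 and 3842 in the 3 control IPs against 3845, 4485 and 3855 in the 3 Stau1 IPs. In raw signal control IP array 2 lay among the Stau1 IPs and the other controls lay below them. TUBB2B had a log2 difference of 0.05 (standard error 0.08) and an interval from 0.905-fold to 1.19-fold, the lowest upper bound of the 10. TUBB2A read 566, 555 and 705 in the 3 control IPs against 586, 711 and 665 in the 3 Stau1 IPs. Control IP array 3 read with the upper Stau1 IP arrays and Stau1 IP array 1 with the lower controls, for a log2 difference of 0.06 (standard error 0.18, adjusted p = 0.968 from limma).

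TUBB3, on chromosome 16, is the beta-tubulin used as a marker of neurons, and TUBB6 is a divergent beta-tubulin of mostly non-neuronal tissues. TUBB3 read 368, 454 and 605 in the 3 control IPs against 518, 624 and 527 in the 3 Stau1 IPs. Control IP array 3 and Stau1 IP array 2 were the highest, so that the groups overlapped, and the log2 difference was 0.19 (standard error 0.22, adjusted p = 0.903 from limma). TUBB6 read 601, 566 and 503 in the 3 control IPs against 554, 733 and 567 in the 3 Stau1 IPs. Stau1 IP array 2 alone stood above the controls. The log2 difference was 0.09 (standard error 0.20, adjusted p = 0.957 from limma).

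TUBG1, on chromosome 17, the main gamma-tubulin of the centrosome, read 2007, 2146 and 2198 in the 3 control IPs against 1944, 2664 and 2097 in the 3 Stau1 IPs. Stau1 IP array 2 was again the highest, and the other 5 arrays lay close together. The mean normalized levels were 11.20 ± 0.09 (SD, n = 3, log2) across the control IPs, compared with 11.20 ± 0.26 (SD, n = 3, log2) across the Stau1 IPs. The difference was 0.0012 (standard error 0.14, adjusted p = 0.999 from limma), with an interval from 0.789-fold to 1.27-fold.

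Counted together, 0 of the 10 tubulin transcripts passed the threshold of the methods, a fold above 2.5 with an unadjusted p under 0.05, and 1 passed an unadjusted p under 0.05 at any fold, with the Stau1 IP higher. Over all targets, 0.00264% passed the threshold as enriched (0.0101% of detected targets), and 3.86% had an unadjusted p under 0.05 with the Stau1 IP higher (9.6% of detected targets) and 5.01% with it lower (12.6% of detected targets). After adjustment 0 of the 10 passed by limma, and 0 by the methods' t-test, against 0.00264% of all targets by limma. The log2 difference was above 0 for all 10, against 52.8% of all targets and 50.1% of detected ones, but 2 of them, TUBB2B and TUBG1, turned below 0 under median centring. The median log2 difference of the 10 was 0.16, beside 0.0037 over all targets, and it was 0.04 under median centring. For all 10 the confidence interval lay below a 2.5-fold enrichment, as for 98.8% of all targets and 96% of detected ones. The bound of TUBB2C was close to that limit, and its interval reached 2.5-fold under 13 of the 19 alternatives, up to 3.36-fold with neqc, as that of TUBA1C did under 2.

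**Figure D2:**
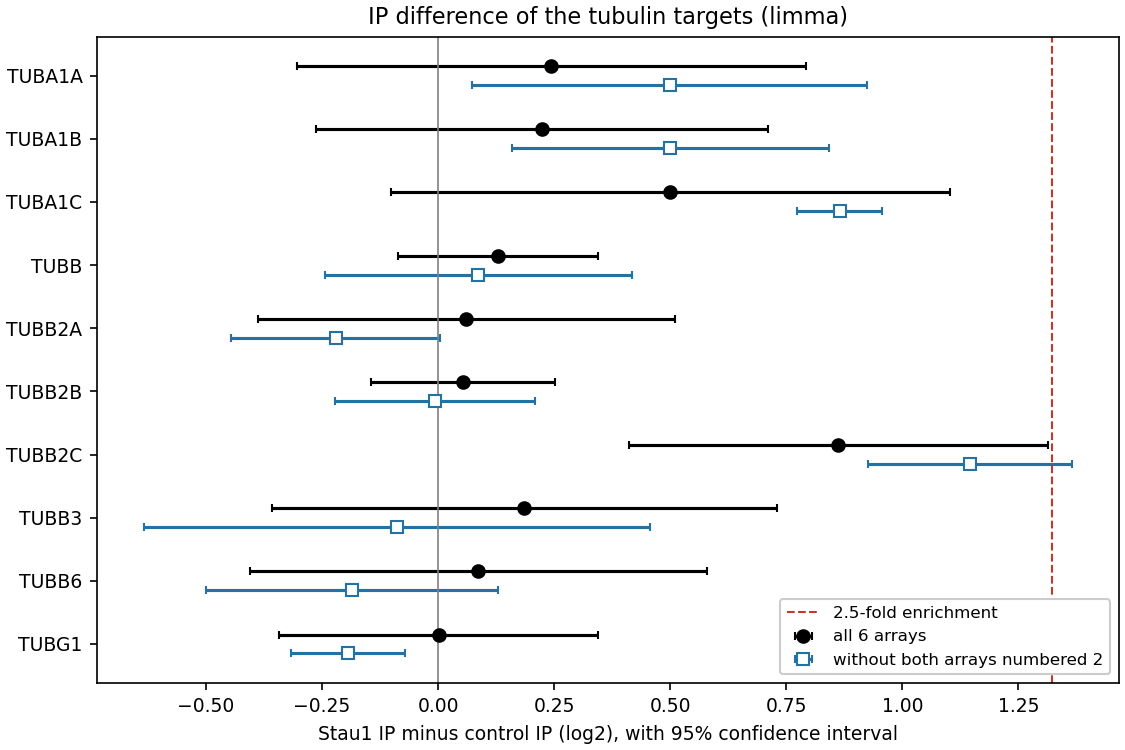
Difference between Stau1 IP and control IP on the log2 scale (horizontal axis) for the 10 tubulin targets, with 95% confidence intervals from limma, for all 6 arrays (black circles) and without both arrays numbered 2 (blue squares). With all arrays every interval lies left of the dashed line at 2.5-fold enrichment and that of TUBB2C alone lies right of 0; without the arrays numbered 2 the intervals of TUBA1A, TUBA1B, TUBA1C and TUBB2C lie right of 0 and that of TUBG1 left of it.

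For comparison with the spread between arrays, the standard error between beads was between 1.64% and 4.60% of the signal for the 10 targets, or 0.02 to 0.08 on the log2 scale. The SD between arrays of 1 group was between 0.04 for TUBB and 0.45 for TUBA1C, both in the Stau1 IPs. Each target was read by 28 to 86 beads per probe on each array.

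The arrays numbered 2 moved the tubulins in 2 directions. For TUBA1A, TUBA1B, TUBA1C and TUBB2C, Stau1 IP array 2 lay below the mean of Stau1 IP arrays 1 and 3, by a log2 difference of -0.67, -0.54, -0.78 and -0.42. For TUBB2A, TUBB2B, TUBB3, TUBB6 and TUBG1 it was the highest of the 6 arrays and lay above the mean of the other Stau1 IPs, by 0.43, 0.20, 0.51, 0.60 and 0.45. Of detected targets, 29.6% were highest on Stau1 IP array 2 (24.9% of all targets) and 29.3% on Stau1 IP array 1 or 3 (28.4% of all targets), the arrays where 4 of the 10 tubulins were highest. Across all 6 arrays, the Pearson correlation between the levels of any pair was 0.69 to 0.96 within the first set and 0.52 to 0.89 within the second. Between the sets it was -0.78 to 0.08. Both sets were formed after the values were seen, the arrays are shared by all points, and these correlations describe 6 arrays only.

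**Figure D3:**
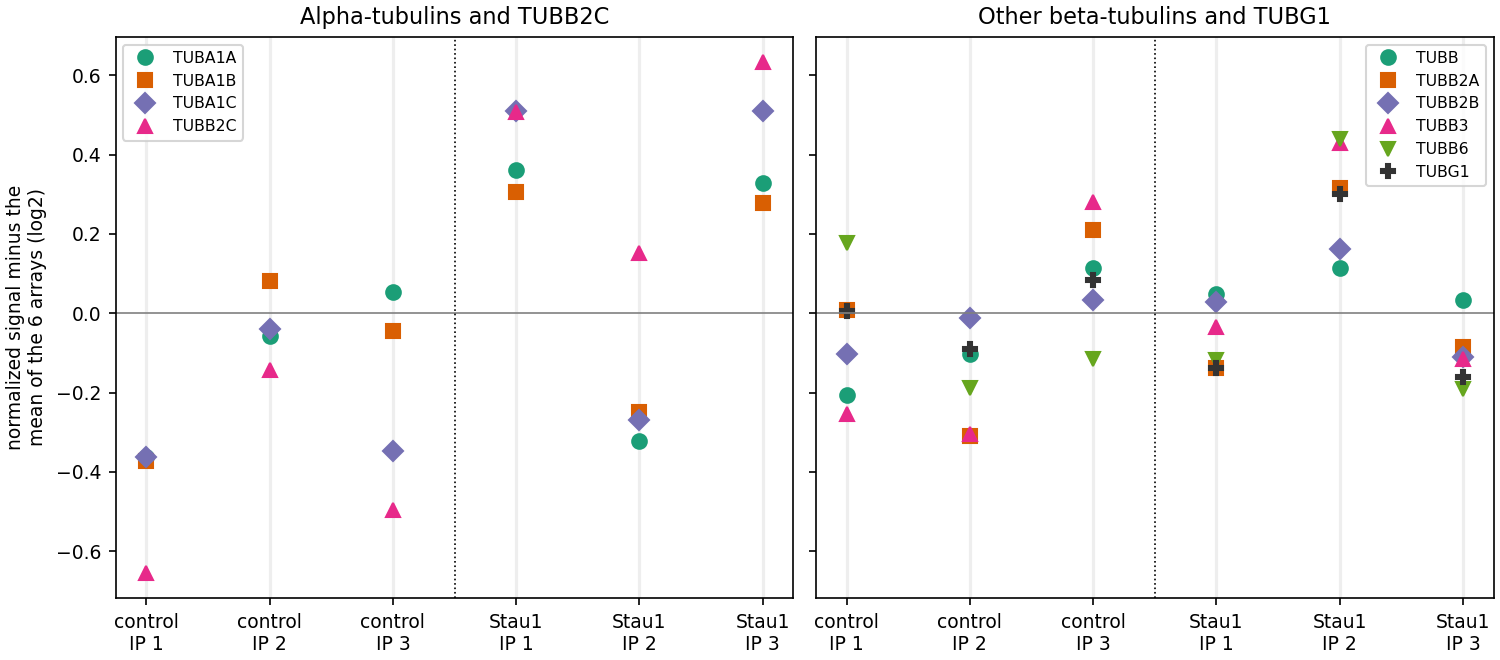
Normalized signal of each tubulin target minus its mean over the 6 arrays (vertical axis, log2) on each array (horizontal axis, control IP left and Stau1 IP right of the dotted line). On the left, TUBA1A, TUBA1B, TUBA1C and TUBB2C are high on Stau1 IP arrays 1 and 3 and lower on Stau1 IP array 2; on the right, all targets except TUBB are highest on Stau1 IP array 2.

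Without both arrays numbered 2, 2 of the 10 transcripts passed after adjustment and both were higher in the Stau1 IP. Levels were not normalized again for this setting, so the remaining arrays stayed mapped by the spline on control IP array 2. TUBB2C was 2.21-fold higher, a log2 difference of 1.15 (standard error 0.08, adjusted p = 0.0161 from limma). TUBA1C was 1.82-fold higher, a log2 difference of 0.86 (standard error 0.03, adjusted p = 0.0103 from limma). TUBA1A and TUBA1B each had a log2 difference of 0.50 (adjusted p = 0.215 and 0.140 from limma) and TUBG1 one of -0.19 (adjusted p = 0.120 from limma). For the other beta-tubulins the log2 difference was 0.09 for TUBB, -0.22 for TUBB2A, -0.0066 for TUBB2B, -0.09 for TUBB3 and -0.18 for TUBB6, and none of these passed. The count of 2 stands beside 3.12% of all targets and 9.13% of detected ones that passed with the Stau1 IP higher in this setting, and 2.25% and 7.51% that passed with it lower. At an unadjusted p under 0.05, 4 of the 10 were higher and 1 was lower, against 8.73% and 8.69% of all targets and 22.8% and 25.4% of detected ones. This setting leaves Stau1 IP arrays 1 and 3 as the Stau1 group, the pair that came closest to the error between beads. For TUBA1C they differed by 0.0010 on the log2 scale and for TUBB2C by 0.12. When this pair was averaged to 1 sample and all other arrays were kept, a choice made after the values were seen, TUBB2C had a log2 difference of 0.79 (adjusted p = 0.658 from limma) and TUBA1C one of 0.37 (adjusted p = 0.953 from limma), and 0 of the 10 passed.

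Of 13 further tubulin targets on the array, 6 were detected on all arrays and 6 on none, and 0 had an unadjusted p under 0.05. TUBB4Q had the largest difference among those detected, and read 744, 871 and 924 in the 3 control IPs against 933, 1650 and 1206 in the 3 Stau1 IPs. Its log2 difference was 0.43 (standard error 0.23, adjusted p = 0.706 from limma), and in normalized levels the groups overlapped. Without both arrays numbered 2 it was 0.13 (standard error 0.11). TUBB4, a beta-tubulin known from brain, read 788, 659 and 532 in the 3 control IPs against 295, 1129 and 408 in the 3 Stau1 IPs. Stau1 IP array 2 was the highest of the 6 and the other Stau1 IPs were the lowest, and the log2 difference was -0.34 (standard error 0.51, adjusted p = 0.931 from limma). Without both arrays numbered 2 it was -0.98 (standard error 0.23, adjusted p = 0.129 from limma), and TUBB4 was then the 1 further tubulin with an unadjusted p under 0.05.

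Transcripts for proteins that fold, modify or bind tubulin were counted in lists that had been chosen with earlier results of these data known. Of 21 tubulin folding targets, which cover the tubulin cofactors, prefoldin and the chaperonin CCT, 1 had an unadjusted p under 0.05 with the Stau1 IP higher and 6 with it lower. Over all targets these shares were 3.86% and 5.01%, and over detected ones 9.6% and 12.6%, and the same shares apply to the lists that follow. The higher one was TBCD (0.39), and the lower ones were TBCA (-0.64), TBCE (-0.39), PFDN4 (-0.69), PFDN5 (-0.58), VBP1 (-0.72) and CCT6A (-0.31), all as log2 differences. TBCA binds free beta-tubulin during dimer assembly. Its signal read 42256, 36211 and 31759 in the 3 control IPs against 18581, 25831 and 23340 in the 3 Stau1 IPs, so the groups lay apart, and its adjusted p from limma was 0.139. Without both arrays numbered 2 the log2 difference of TBCA was -0.68 (adjusted p = 0.0562 from limma). Of 24 targets for microtubule-binding proteins, 0 were higher and 6 lower at an unadjusted p under 0.05 (background 3.86% and 5.01% of all targets, 9.6% and 12.6% of detected ones), namely CLASP1 (-0.23), CLIP1 (-0.24, detected on 2 arrays), KATNA1 (-0.22), MAP1B (-0.07, detected on none), MAP7 (-0.40) and MAPRE1 (-0.32). STMN1, which sequesters tubulin dimers, had the largest log2 difference of that list at -0.57 (standard error 0.28), and -0.94 (standard error 0.18) without both arrays numbered 2.

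Of 22 targets for enzymes that modify tubulin, 3 were higher and 2 lower at an unadjusted p under 0.05. The higher ones were the deacetylase SIRT2 (0.45), TTLL12 (0.29) and TTLL4 (0.23), and the lower ones were the deglutamylase AGTPBP1 (-0.52) and TTLL7 (-0.20). Of 9 targets for the autoregulation of tubulin mRNA, 0 were higher and 2 were lower, CNOT2 (-0.38) of the CCR4-NOT complex and SCAPER (-0.23, detected on 3 arrays), while CNOT6 had -0.31 and did not pass (0.06 without both arrays numbered 2). C2ORF29 of this list (0.096) and C6ORF134 of the modifying enzymes (0.18), both detected on all 6 arrays, were listed but not matched. They are missing from the counts and medians of their lists, and their p-values are not given here. TTC5 read 1219, 1142 and 1393 in the 3 control IPs against 993, 1516 and 1039 in the 3 Stau1 IPs, for a log2 difference of -0.16 (standard error 0.23), or -0.51 (standard error 0.06) without both arrays numbered 2. Like TUBG1 and TUBB4, it was highest on Stau1 IP array 2. Of 8 targets of the gamma-tubulin ring complex, which works with TUBG1, TUBGCP6 alone passed an unadjusted p under 0.05, with 0.22. TUBGCP2, a core subunit, had a log2 difference of -0.18 (standard error 0.38), with a signal of 5231 on Stau1 IP array 2 against 2034 and 2318 for the other Stau1 IPs. Its log2 difference was -0.72 (standard error 0.11) without both arrays numbered 2. None of the list targets passed after adjustment over all targets with all 6 arrays. Without both arrays numbered 2, 1 folding target passed as higher and 3 as lower, 1 modifying enzyme as higher, 4 microtubule-binding targets as lower, and CNOT2 and TTC5 as lower (adjusted p = 0.0399 and 0.0280 from limma). In that setting 3.12% of all targets and 9.13% of detected ones passed as higher, and 2.25% and 7.51% as lower. At an unadjusted p under 0.05, 4 folding targets were then higher and 10 lower, 1 and 11 microtubule-binding targets, 6 and 2 modifying enzymes, 2 and 4 autoregulation targets and 2 and 1 ring complex targets, against 8.73% and 8.69% of all targets and 22.8% and 25.4% of detected ones. The median log2 difference of the detected targets was 0.16 for the 10 tubulins and 0.16 for the modifying enzymes, against -0.20 for the folding list, -0.21 for the microtubule-binding list, -0.19 for the autoregulation list, -0.02 for the ring complex and 0.04 for the further tubulins. Without both arrays numbered 2 these medians were 0.04 for the 10 tubulins, 0.24 for the modifying enzymes, -0.30 for the folding list, -0.20 for the microtubule-binding list, -0.20 for the autoregulation list, 0.03 for the ring complex and -0.16 for the further tubulins, beside -0.04 for all detected targets.

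**Figure D4:**
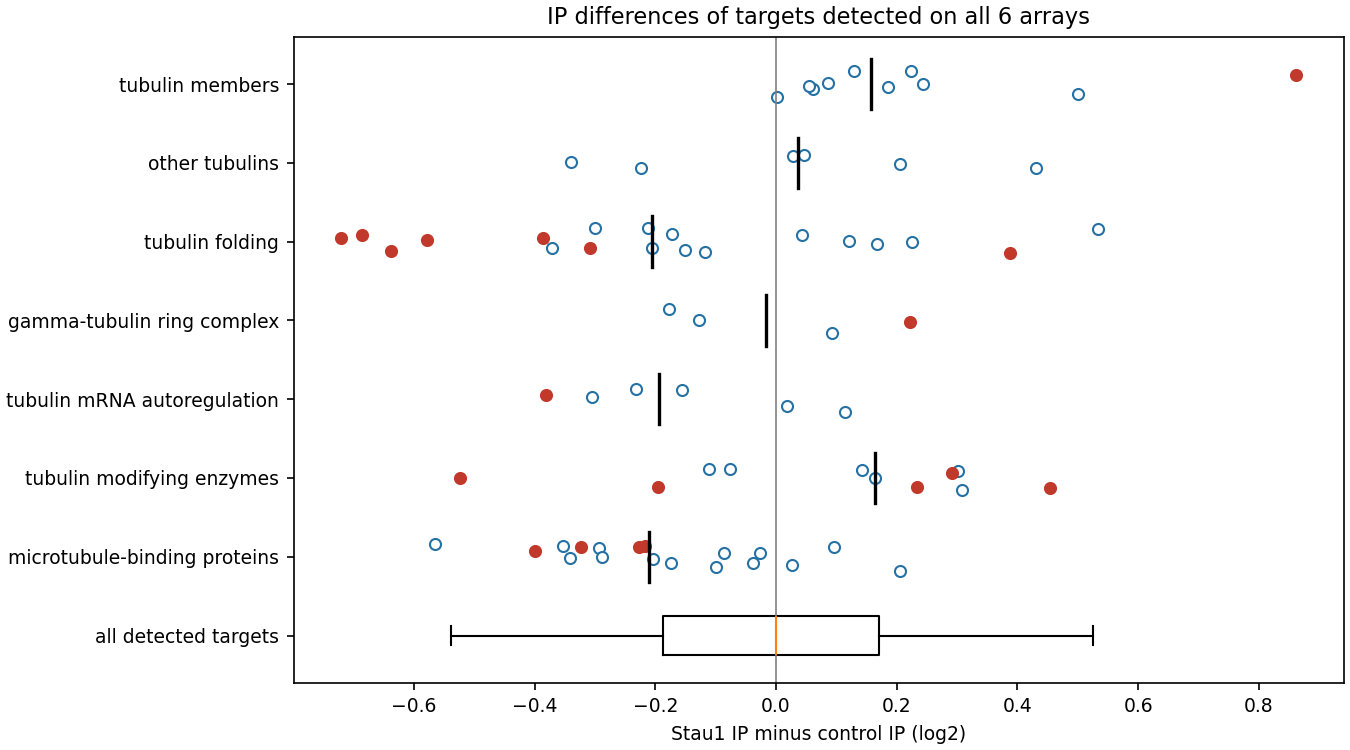
Difference between Stau1 IP and control IP (horizontal axis, log2) of the targets detected on all 6 arrays, for the tubulin members and each list, with the median as a black line, filled red points at an unadjusted p under 0.05 and open points otherwise. The listed targets C2ORF29 and C6ORF134 are not among the list points. The box at the bottom shows all 9884 detected targets, with its whiskers at the 5th and 95th percentile (-0.54 and 0.52); TUBB2C, at 0.86, is the point farthest right among the lists and members.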

How the data were processed

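RNA from 3 control IPs and 3 Stau1 IPs was hybridized on Illumina HumanWG-6 BeadChips. Per the file headers, the deposited intensity values are BeadStudio gene profiles, neither normalized nor background-subtracted, in which the probes of a target are combined. The deposited table also holds bead standard errors, bead numbers and detection p-values. Total RNA arrays were not analysed here. Chromosomes are those of the table, and its genome build is not given in the sources used here.

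From the intensities, each array's negative control level was subtracted, estimated as the median signal of 200 targets chosen for a detection p close to 0.5. A variance stabilizing transformation was fitted to the bead SD over 500 bins without the lowest 33.3% of signals, with a log2 slope of 1 for bright targets. A monotone spline with 10 knots mapped each array on control IP array 2. The settings that leave out arrays kept this normalization, also where control IP array 2 was left out. The transformation is nearly linear for dim signals, so it understates their changes. Groups were compared over all 37879 targets with limma 3.58.1 in R 4.3.3, with mgcv 1.9.3 for the splines, and p-values were adjusted by Benjamini-Hochberg. Figures were drawn with matplotlib 3.10.9 in Python 3.11.15.

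The steps were tried on simulated data with larger changes in bright targets and no exchanged arrays. That trial does not bear on the smaller differences reported here. The 10 members, the gene lists and the alternatives were chosen with earlier results of these data known. Named genes were all members, list targets with an unadjusted p under 0.05 and the pair with the largest difference in each list among targets detected on all arrays, STAU1, and the 5 targets closest in pattern. TTC5, C2ORF29 and C6ORF134 fall outside this rule and were named after their values were seen. C2ORF29 and C6ORF134 were listed but not matched by their symbols, so the list counts and medians leave them out. Cell type and mitotic markers served to check the cells. The alternatives were other normalizations, no background correction, neqc, log2 values floored at 1, detection filters, eBayes with trend, a replicate block, leaving out arrays and the methods' t-test. Averaging Stau1 IP arrays 1 and 3 was added after seeing the data. The number of arrays limits the precision.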

Additional observations from a re-analysis of the deposited data

How the results depend on the processing

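No setting moved the count of tubulin transcripts past the methods' threshold from 0. With all 6 arrays only 1 of 37879 targets passed it as higher and 0 as lower, so a 0 among 10 carries little weight. Without both arrays numbered 2, 227 targets passed as higher and 15 as lower (195 and 14 of the 9884 detected targets). Over 19 alternatives for each of 10 transcripts, 174 of 190 values kept their direction and side of the adjusted threshold, 3 passed it and 13 changed sign. TUBB2C passed without between-array normalization (0.91, adjusted p = 0.00507 from limma), a setting that shifts the median of all targets by 0.11, and without both arrays numbered 2 (1.15), where TUBA1C also passed (0.86). Over all alternatives TUBB2C stayed between 0.75 and 1.16 and its adjusted p between 0.00507 and 0.686. The number with an adjusted p under 0.05 was therefore 1 without between-array normalization and 2 without both arrays numbered 2. The number with an unadjusted p under 0.05 was 2 under quantile normalization, without between-array normalization and under eBayes with trend, and 5 without both arrays numbered 2. Leaving out single arrays gave 1 to 4, with 4 without Stau1 IP array 2 and 2 without control IP array 3. Beside the 5 without both arrays numbered 2 stand 8.73% of all targets higher and 8.69% lower (22.8% and 25.4% of detected ones). For the other alternatives the shares of all targets are not given here, so those counts have no background to be read against. The median log2 difference was 0.037 under median centring and 0.040 without both arrays numbered 2, where TUBB2A (-0.22), TUBB2B (-0.0066), TUBB3 (-0.0892), TUBB6 (-0.18) and TUBG1 (-0.19) fell below 0. From 0.158 with all arrays, leaving out single arrays moved the median to 0.0616 without Stau1 IP array 2, 0.0952 without control IP array 2, 0.0993 without control IP array 1 and 0.238 without control IP array 3. Under median centring TUBB2B had -0.0064 and TUBG1 -0.0413. Leaving out single arrays moved TUBB2A between -0.0813 and 0.181, TUBB2B between -0.0141 and 0.123, TUBB6 between -0.112 and 0.205 and TUBG1 between -0.149 and 0.0822, with the lowest values without Stau1 IP array 2. Without control IP array 2 TUBB2A and TUBG1 had -0.0786 and -0.0435. The cause of these changes was not tested.

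The labels do not say that a replicate number marks a shared culture or day. Deviations of arrays that share a number correlated at -0.46, -0.78 and -0.39 over detected targets, but unpaired numbers and an exchange of the arrays numbered 2 cannot be told apart from these values, so the pairing was not settled. With the replicate number as a block, 0 tubulin transcripts passed after adjustment, 1 had an unadjusted p under 0.05, TUBB2C had an adjusted p of 0.678 from limma, and 8 of the 10 intervals lay below a 2.5-fold enrichment.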

Other observations

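The mean profile of the 10 tubulin transcripts over the 6 arrays, each relative to its own mean, read -0.21, -0.12 and -0.02 in control IPs 1, 2 and 3, against 0.13, 0.11 and 0.11 in Stau1 IPs 1, 2 and 3 (log2). Among detected targets, the 5 with the profile most like it over these 6 arrays were C12orf34, NR1H2, AMDHD2, TWF2 and CASP9, with a Pearson correlation of 0.990 to 0.993. They were picked as the highest of all detected targets, so the values describe the choice. Single tubulins departed from this mean, as TUBA1C and TUBG1 did in opposite directions on Stau1 IP array 2.

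The number of beads is deposited as a mean over the probes of a target. For 5 of the 10 transcripts, TUBA1B, TUBA1C, TUBB2B, TUBB2C and TUBB3, it was a whole number on every array. For the others it was not on at least 1 array, so their signal combines more than 1 probe. TUBB2C and TUBA1C, the transcripts with the largest IP differences, are both among those with whole numbers.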
